A study of Rattus norvegicus with 36 samples.

Results

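Type I interferon-stimulated genes are the genes that a cell switches on when interferon alpha or beta is sensed. They were read here from RNA sequencing of primary alveolar macrophages, the phagocytes that clear inhaled particles from the air spaces, of male F344/HanZtmRj rats. The members were the rows of the table that carry the symbols of a list of 34 such genes. Of these, 33 had a row, and all 33 were among the 14498 of 23487 listed genes that were tested. The expression of Samd9l was not analysed here. The cells had been kept in culture for 5 days and exposed for 4 days to 1 of 4 particles, the carbon black Printex90 or the titanium dioxides G1-1, G3-1 and Bayertitan. Every particle was given at a control, a non-overload and an overload condition, with controls of its own, which made 12 groups of 3 libraries and 36 libraries in all. The doses behind the condition names, the age of the rats and whether the 3 replicates of a group came from separate animals are not given in the sources used here, so the p-values measure the spread between these libraries.

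Interferon alpha and beta bind the paired receptor Ifnar1 and Ifnar2 and act through the kinases Jak1 and Tyk2. Stat2 then acts with Irf9 in a complex that binds the interferon-stimulated response element in the promoters of its target genes, whereas the response to interferon gamma runs through another element, the gamma-activated site. Cells sense viral RNA or misplaced DNA, make interferon, and the target genes then encode sensors, signalling factors and proteins that block viruses, several of which raise the response further. Alveolar macrophages are known as a source of type I interferon in virus-infected lungs. The roles named below are known mostly from human and mouse work.

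Levels are in CPM, counts scaled to a common library size, a unit that accounts for depth and does not correct for gene length, so levels are compared between libraries and not between genes. Column totals ran from 22274320 to 37131475 estimated counts. The macrophage genes Cd68, Lyz2 and Mrc1 were at 483 CPM or more in every library, whereas Marco, a scavenger receptor that marks alveolar macrophages, was at no more than 0.36 CPM. The fibroblast collagen gene Col3a1 had more than 1 count in 15 libraries and at most 1 count in the other 21, and the summed level of 6 epithelial markers was 695 to 1849 CPM. In bulk RNA, fewer cells of a type and less RNA per cell cannot be told apart. Reads of the close relatives among the Oas, Ifit, Ifitm, Gbp and Mx genes and the immunity-related GTPases can be split between copies, so their levels are uncertain to that extent.

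The interferon-stimulated response element was searched in RefSeq promoters of build GRCr8, from 250 bases before to 50 bases after the start of the gene. Promoters were matched by symbol for 27 of the 34 members, Samd9l through a synonym. Isg15, Mx2, Ifit2, Usp18, Dhx58, Ddx58 and Rtp4 were not among them. Its core, which is GAAA, any 2 bases and GAAA again, was searched on both strands and was found in 17 of the 27 (63.0%), against 1312 of all 33469 promoters (3.92%). The gamma-activated site TTCNNNGAA, which reads the same on both strands, was found in 7 of the 27 (25.9%), against 2970 of all promoters (8.87%). Both were found in 5 members, with letters shared only in Bst2, and 8 of the 27 held neither. A match is a description of letters and not a binding site shown in these cells.

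The 150 bases before the start of 6 members with a match and with results below are printed. They do not stand for all members with results. Mx1, also among the widest spreads, and Parp9, which passed at Printex90 overload, held neither motif and are not printed. Rsad2, Ifit3, Irf7 and Ifitm3 had some of the widest spreads between replicate libraries, and Gbp2 and Ifi47 passed the test at overload. All are written in the direction of the gene. Capitals mark the response element core, on either strand, and in Ifi47, where the core had no match, the gamma-activated site. The windows are chr6:48788121-48788270 (minus strand) for Rsad2, chr1:241527176-241527325 (plus strand) for Ifit3 and chr1:205800024-205800173 (minus strand) for Irf7. Those of the others are chr1:205541759-205541908 (minus strand) for Ifitm3, chr2:234005577-234005726 (plus strand) for Gbp2 and chr10:33798594-33798743 (plus strand) for Ifi47.
Rsad2: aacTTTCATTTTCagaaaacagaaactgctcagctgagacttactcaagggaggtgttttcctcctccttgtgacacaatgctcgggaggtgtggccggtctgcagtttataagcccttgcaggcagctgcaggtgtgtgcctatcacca
Ifit3: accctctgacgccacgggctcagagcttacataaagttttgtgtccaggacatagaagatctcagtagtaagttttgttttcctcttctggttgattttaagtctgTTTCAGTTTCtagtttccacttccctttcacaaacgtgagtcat
Irf7: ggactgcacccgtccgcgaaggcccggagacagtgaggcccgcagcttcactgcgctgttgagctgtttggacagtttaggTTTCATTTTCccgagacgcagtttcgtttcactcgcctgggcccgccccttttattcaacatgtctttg
Ifitm3: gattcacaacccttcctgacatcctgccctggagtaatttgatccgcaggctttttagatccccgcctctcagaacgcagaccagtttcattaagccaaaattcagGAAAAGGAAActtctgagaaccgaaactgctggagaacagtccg
Gbp2: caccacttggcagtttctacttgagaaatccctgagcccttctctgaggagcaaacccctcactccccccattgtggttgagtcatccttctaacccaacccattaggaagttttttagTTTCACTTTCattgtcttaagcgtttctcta
Ifi47: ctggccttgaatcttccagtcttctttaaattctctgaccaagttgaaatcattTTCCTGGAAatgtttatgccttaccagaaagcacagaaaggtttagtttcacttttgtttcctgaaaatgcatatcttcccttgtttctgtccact
The marked core began 31 bases before the start in Gbp2 and 147 bases before it in Rsad2, and 44 bases before it in both Ifit3 and Ifitm3. In Irf7 it began 69 bases before the start. Ifi47 had 2 gamma-activated sites, at 96 and 212 bases before the start, of which the nearer is in the printed window.

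Overload was compared with the particle's own controls by edgeR's quasi-likelihood test over all genes, with a Benjamini-Hochberg adjusted p under 0.05 as the threshold. Few members passed. With Printex90, Ifi47 and Parp9 fell, 2 of 33 members, where 7.99% of all tested genes passed. With G1-1, Ifi47 alone fell, 1 of 33, where 5.01% of all genes passed. With G3-1 none of the 33 passed, where 0.117% of all genes did. With Bayertitan, Gbp2 alone rose, 1 of 33, where 9.84% of all genes passed. Unadjusted p-values were under 0.05 for 7 members with Printex90 (25.2% of all genes), 6 with G1-1 (16.8%), 2 with G3-1 (12.2%) and 5 with Bayertitan (28.3%). DESeq2 called these members and also Rsad2 with Printex90, Oasl, Mx2 and Rsad2 with G1-1 and Isg20 with Bayertitan, which made 3 members with Printex90, 4 with G1-1, 0 with G3-1 and 2 with Bayertitan.

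**Figure D1:**
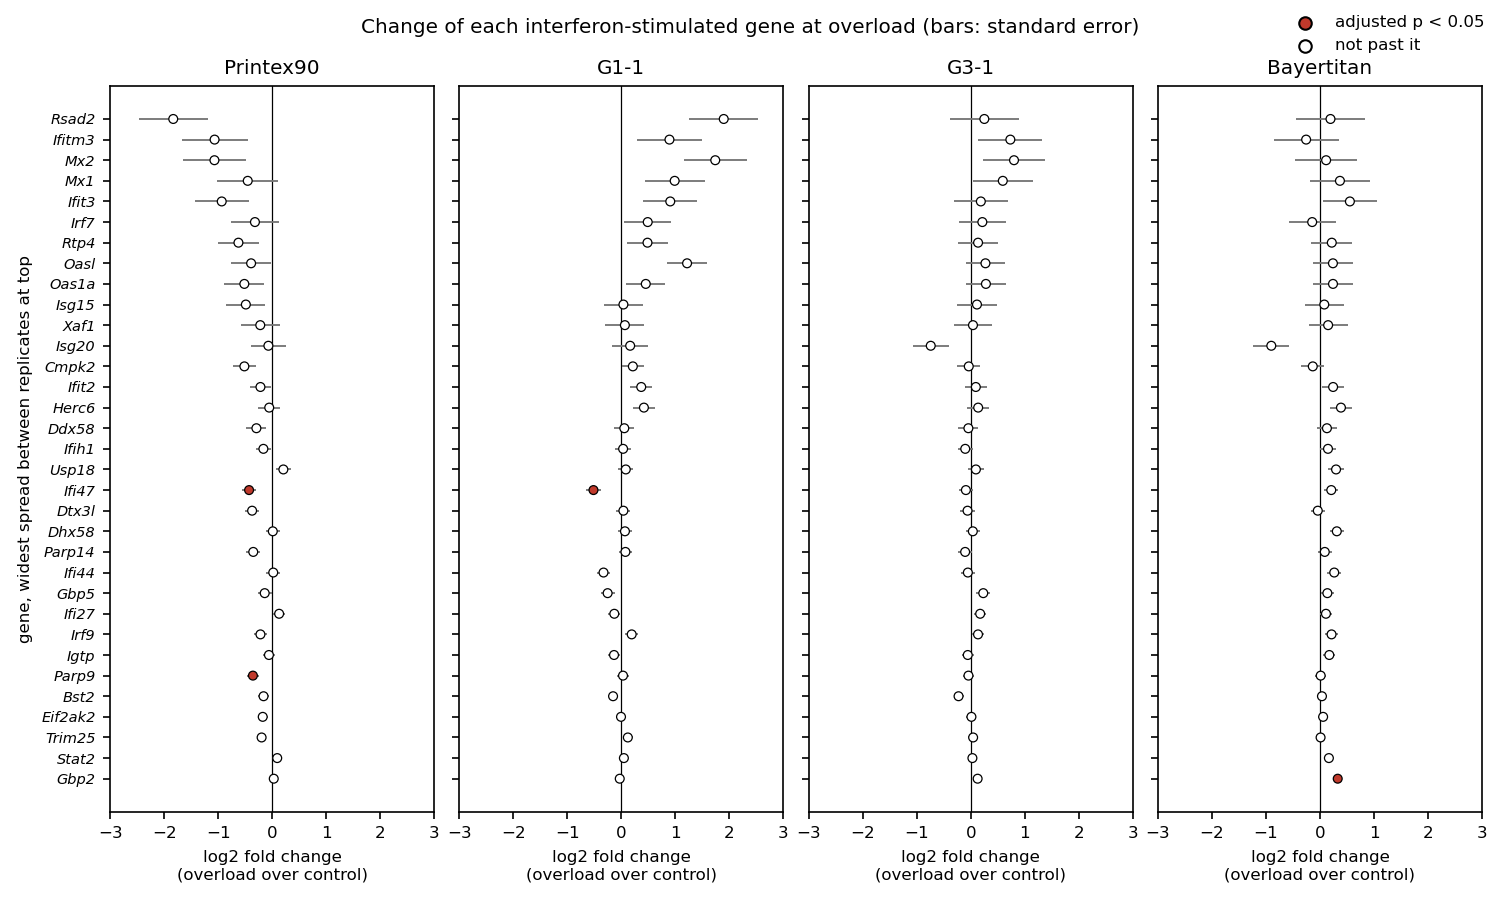
Log2 fold change of overload over control (horizontal axis) of the 33 members (rows), 1 panel per particle, with bars for the standard error of the edgeR fit; filled points have an adjusted p under 0.05. The filled points are Ifi47 and Parp9 for Printex90, Ifi47 for G1-1 and Gbp2 for Bayertitan, and the widest bars belong to Rsad2, Ifitm3, Mx2 and Mx1 at the top.

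At both loadings most fold changes were negative with Printex90 and positive with Bayertitan, and no difference between particles was tested over the list. With Printex90 overload 27 of the 33 fold changes were negative, with a median of -0.22 on the log2 scale against -0.01 over all tested genes. All 3 overload libraries lay below all 3 controls in 11 members, among them Parp9, Parp14 and Dtx3l, the sensor Ddx58 and the kinase Eif2ak2, and above them in Usp18 (12.6% and 12.8% of all genes). Without control replicate 1 of Printex90 the median was -0.13, with 12 of 33 positive in place of 6. With G1-1 overload 25 of 33 were positive, with a median of 0.07, but without overload replicate 2 the median was -0.20 and 8 of 33 were positive. With G3-1 the median was 0.09 and with Bayertitan 0.15, where 28 of 33 were positive. Leaving out 1 library of the comparison gave medians of 0.04 to 0.10 with G3-1 and of 0.07 to 0.26 with Bayertitan. At non-overload 6 of 33 fold changes were positive with Printex90, 30 with G1-1, 10 with G3-1 and 25 with Bayertitan. The medians were -0.15, 0.14, -0.05 and 0.08, and 52.2%, 48.3%, 49.2% and 54.8% of all genes were positive. Without control replicate 1 of Printex90 the Printex90 non-overload median was 0.02, with 18 of 33 positive.

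Members whose libraries did not overlap those of the controls were counted in the same way for the titanium dioxides and at non-overload. At G1-1 overload 2 members, Rsad2 and Ifitm3, lay above all controls and 1, Gbp5, below them (11% and 13.2% of all genes). At G3-1 overload Oasl, Irf9, Ifi27 and Gbp2 lay above and Bst2 below (4 and 1 members; 5.67% and 9.02% of all genes). At Bayertitan overload Usp18, Ifi44, Ifi47, Gbp2 and Dhx58 lay above and Isg20 and Cmpk2 below (5 and 2 members; 16.8% and 14.2% of all genes). At non-overload 0 members lay above and 4 below with Printex90 (5.61% and 4.93% of all genes) and 2 above and 0 below with G1-1 (7.04% and 8.9%). With G3-1 it was 1 above and 1 below (5.5% and 4.77%), and with Bayertitan 2 above and 1 below (11% and 10.7%).

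Marker sums lay apart from the controls at Bayertitan overload and also in other groups. The macrophage marker sum was 16736 to 20492 CPM in the Bayertitan overload libraries and 13827 to 15359 CPM in their controls, without overlap. Its part in the changes of members was not tested. The epithelial marker sum was 760 to 1276 CPM in the Bayertitan overload libraries and 1304 to 1527 CPM in their controls, without overlap. Gbp2 did not pass with that marker level as a covariate (log2 fold change 0.21, adjusted p = 0.285 by edgeR). At Bayertitan non-overload the macrophage sum was 16222 to 17466 CPM and the epithelial sum 812 to 1297 CPM, also without overlap with the controls. At G3-1 overload the epithelial sum was 744 to 963 CPM, against 984 to 1251 CPM in its controls, again without overlap.

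At the non-overload loading no member passed against control with any particle. Of all genes 0% passed with Printex90, 0.0621% with G1-1, 0% with G3-1 and 0% with Bayertitan. Unadjusted p-values were under 0.05 for 0, 4, 0 and 5 members in that order of particles, against 4.33%, 6.38%, 5.39% and 16.2% of all genes, and DESeq2 called 0 members in each, although 18 members had no adjusted p with Bayertitan. Between overload and non-overload, Ifi47 fell with G1-1, 1 of 33, where 1.95% of all genes passed. None of the 33 passed with Printex90 (1.59% of all genes), G3-1 (0%) or Bayertitan (0%), with 1, 0 and 1 unadjusted p-values under 0.05 (20.6%, 6.35% and 6.39% of all genes) and 0 calls by DESeq2, which gave 14 members no adjusted p with Printex90.

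Averaged over the 4 particles, Ifi47 fell and Gbp2 rose at overload, 2 of 33 members, where 24% of all genes passed, and DESeq2 called these and Bst2, which was lower. Without overload replicate 2 of G1-1 the averaged change passed in 6 members, Ifi47, Parp9, Cmpk2, Dtx3l, Parp14 and Bst2, all lower, and Gbp2 did not pass (adjusted p = 0.0938 by edgeR). The averaged non-overload change passed in none (2.75% of all genes; 3 unadjusted, 0 by DESeq2). Averaged overload against non-overload also passed in none (0.91% of all genes; 1 unadjusted, 0 by DESeq2). The 4 overload changes, each against its own controls, did not differ by an adjusted p under 0.05 in any member (1.72% of all genes; 8 unadjusted), while DESeq2 called Ifi47 and Rsad2. The 4 control groups differed in 2 of 33 members, Ifi47 and Rsad2, where 5.59% of all genes passed (9 members and 23.1% of all genes unadjusted). Each particle was compared only with controls of its own.

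Most members varied more between replicate libraries than the fit gave for genes of their abundance. The edgeR dispersion of 32 of the 33 members lay above the value fitted for genes of their abundance, against 54.8% of all tested genes, and the exception was Gbp5. It was more than 2 times the fitted value in 25 of 33 members, against 26.8% of all genes. The standard deviation of log2 CPM within groups, pooled over the 12 groups, was widest in Rsad2 (0.78), Ifitm3 (0.77), Mx2 (0.71) and Mx1 (0.71) and narrowest in Gbp2 (0.10) and Stat2 (0.11). Its median was 0.18 over the members and 0.15 over all tested genes.

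**Figure D2:**
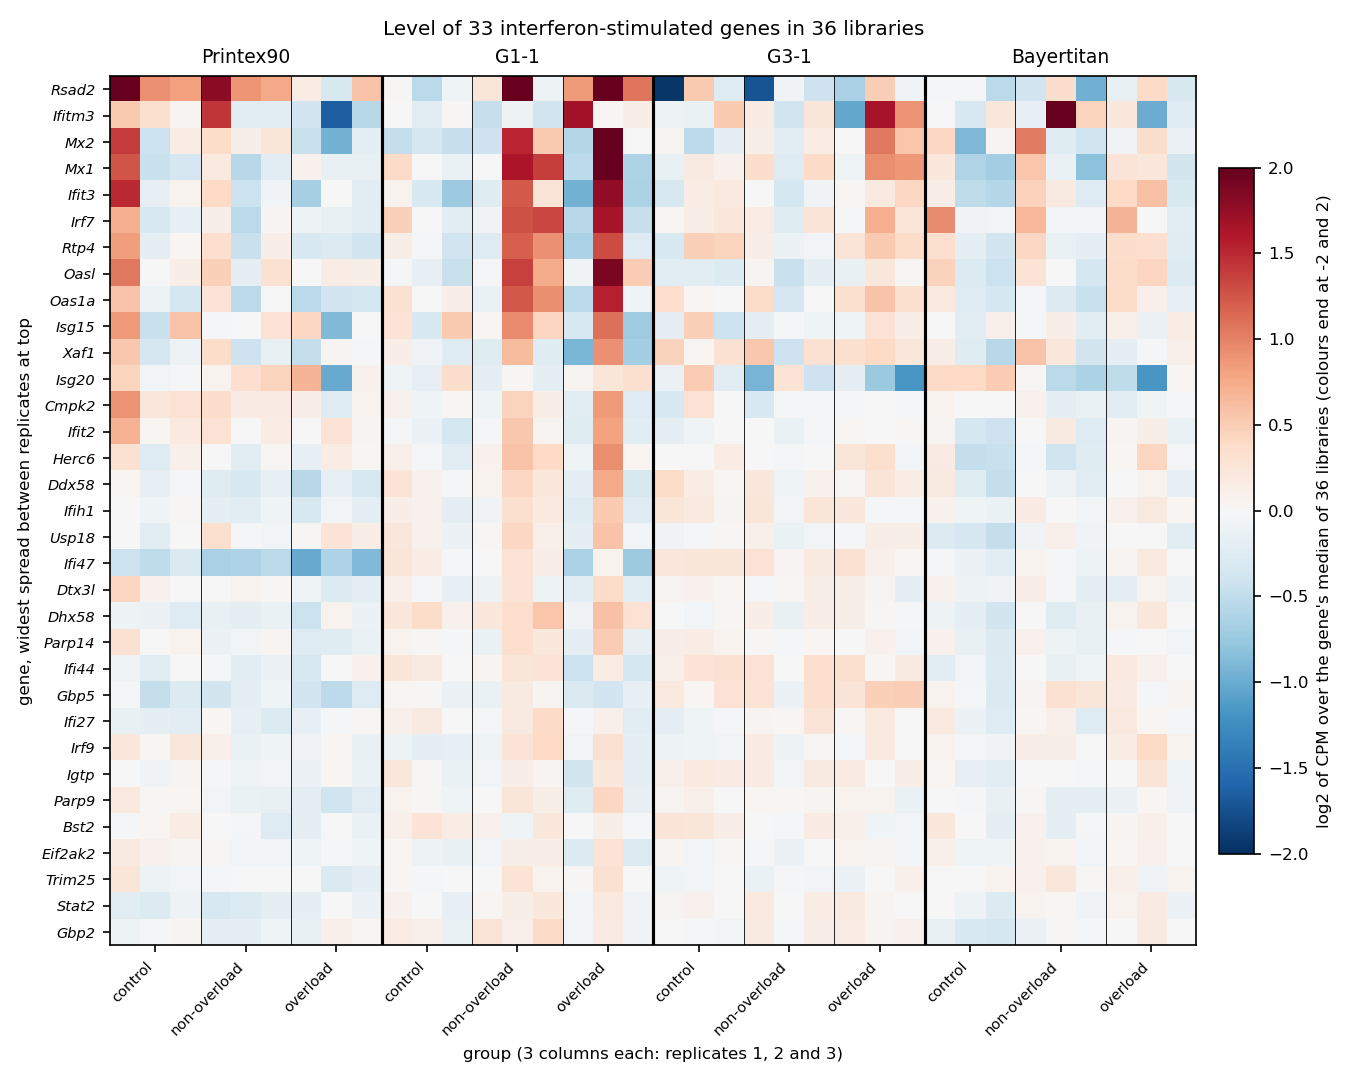
Colour gives the log2 of a member's CPM over its median of 36 libraries (red higher, blue lower, colours end at -2 and 2), with members in rows from the widest to the narrowest spread and libraries in columns by particle, loading and replicate. Replicate 2 of the G1-1 overload group, replicates 2 and 3 of G1-1 non-overload and replicate 1 of the Printex90 controls stand out as red columns in the upper rows.

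The members moved together in single libraries. In overload replicate 2 of G1-1, 19 of the 33 members had their highest level of all 36 libraries, against 1.90% of all tested genes, and 31 of 33 lay above the mean of their group, against 49.8% of all genes. The level there was at least 1.5 times the mean of the other 2 replicates in 20 members and at least 2 times in 13, with a median ratio of 1.62. The ratio was 7.42 for Mx1, 6.99 for Mx2, 5.90 for Ifit3 and 4.45 for Irf7. It was below 1 in 2 members, Gbp5 at 0.90 and Ifitm3 at 0.47. Of 59 other interferon-induced genes that were tested, 53 also lay above their group mean in this library and 16 had their highest level there. The chemokine Cxcl10, an interferon target, was at 1.32, 7.77 and 1.38 CPM in the G1-1 overload libraries.

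Marker levels of cell types are given for the same group, and their part in the levels of the members was not tested. The macrophage sum was 12954, 14351 and 14615 CPM in the 3 G1-1 overload libraries, against 15130 to 19875 CPM in the G1-1 controls, without overlap. Markers of plasmacytoid dendritic cells, the main interferon producers of blood, summed to 0.203, 0.037 and 0.119 CPM in the 3 G1-1 overload libraries. The fibroblast sum was 1063, 24.4 and 22.8 CPM, the epithelial sum 1273, 1393 and 1366 CPM and the T and natural killer cell sum 13.7, 10.5 and 21.4 CPM. None of the 5 plasmacytoid markers was tested, and their sum in replicate 2 lay under the floor of 3 counts (0.111 CPM). Of the 7 T and natural killer cell markers 3 were tested. These 2 sums are therefore not ranked between the libraries. Replicate 2 had a fibroblast sum between the others and the highest epithelial sum. Its column total, 27719895, lay between those of replicate 1, 29826265, and replicate 3, 25733625.

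Members were also high together in other libraries. In control replicate 1 of Printex90, 28 of 33 members lay above their group mean, against 51.3% of all tested genes, and 11 were at least 1.5 times the mean of the other 2 controls, against 6.97% of all genes. Rsad2, Cmpk2 and Dtx3l had their highest level of all 36 libraries there, 3 of 33 members, where 7.64% of all genes had theirs, a share near the background. The ratio in that library was 4.66 for Rsad2, 3.14 for Mx1, 2.90 for Ifit3 and 2.84 for Mx2. In control replicate 1 of G1-1 and of Bayertitan, 30 of 33 members lay above their group mean (51.2% and 50.3% of all genes). There 1 and 7 members were at least 1.5 times the mean of the other 2 controls (4.21% and 4.40% of all genes). In non-overload replicate 3 of G3-1, 28 of 33 lay above the group mean (54.8% of all genes), and 0 were at least 1.5 times the other 2 (3.99%). Replicate 1 of the G1-1 non-overload group was the low one, with 2 of 33 members above the group mean and a median ratio of 0.81, against 28 of 33 above it in replicate 2 and 19 of 33 in replicate 3. Of all tested genes 51.5% lay above the group mean in replicate 1, 48.4% in replicate 2 and 50.8% in replicate 3.

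Interferon itself was hardly detected. The 10 interferon genes in the table had 47 counts in all 36 libraries together and no more than 6 in any library, and none was tested. Ifnb1, which encodes interferon beta, had 1 count in all. The interferon gamma gene Ifng and the lambda genes Ifnl1 and Ifnl3 had 0 counts. This allows levels up to 0.0812 to 0.134 CPM, depending on the library (3 counts, counting error only). The receptor chain Ifnar1 had group means of 242 to 290.0 CPM and Ifnar2 of 23.7 to 29.4 CPM, and neither changed past the test at overload with any particle. Levels after 4 days do not show what was made earlier.

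The sensors of viral RNA were of moderate spread. Ddx58 ranged from 11.7 to 29.1 CPM over the 36 libraries, Ifih1 from 21.2 to 37.9 CPM and Dhx58, which lacks a signalling domain and tunes the other sensors, from 18.3 to 37.2 CPM. All 3 were highest in overload replicate 2 of G1-1 and lowest in overload replicate 1 of Printex90. None of them passed the test in any comparison.

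Among the signalling factors, Stat2, which acts with Irf9, was one of the steadiest members. Stat2 was at 84.2, 81.9 and 92.4 CPM in control, 79.5, 81.3 and 87.0 CPM in non-overload and 86.3, 98.8 and 91.0 CPM in overload libraries of Printex90. Stat2 was at 104, 99.4 and 88.5 CPM in control, 102, 107 and 114 CPM in non-overload and 94.7, 113 and 94.0 CPM in overload libraries of G1-1. Its groups overlapped at every loading of these particles. Stat2 was at 102, 105 and 99.1 CPM in control, 113, 98.6 and 109.7 CPM in non-overload and 112, 102 and 98.4 CPM in overload libraries of G3-1. Stat2 was at 98.4, 92.0 and 82.1 CPM in control, 104, 101 and 94.0 CPM in non-overload and 103, 111 and 91.0 CPM in overload libraries of Bayertitan. The lowest library was non-overload replicate 1 of Printex90, and no difference of Stat2 passed the test in any comparison.

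Irf9, the DNA-binding subunit of the complex with Stat2, had the smallest p of the members for G1-1 at non-overload. Irf9 was at 15.7, 14.7 and 15.1 CPM in control, 16.0, 20.4 and 22.2 CPM in non-overload and 16.3, 20.9 and 14.7 CPM in overload libraries of G1-1. All 3 non-overload libraries lay above the 3 controls (log2 fold change 0.36, SE 0.12, adjusted p = 0.517 by edgeR). Irf9 was at 19.5, 17.4 and 19.7 CPM in control, 18.2, 15.4 and 16.0 CPM in non-overload and 16.1, 17.4 and 15.2 CPM in overload libraries of Printex90. Irf9 was at 15.8, 15.9 and 16.3 CPM in control, 19.1, 15.7 and 17.3 CPM in non-overload and 16.5, 19.4 and 16.9 CPM in overload libraries of G3-1. Irf9 was at 17.8, 16.7 and 16.1 CPM in control, 18.5, 18.4 and 16.9 CPM in non-overload and 18.7, 22.3 and 17.7 CPM in overload libraries of Bayertitan. The overload libraries of G3-1 were all above their controls by less than the test could call, and those of Printex90 overlapped them.

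Irf7, the factor that amplifies the response, followed the single libraries. Irf7 was at 17.1, 12.2 and 10.6 CPM in control, 11.8, 29.9 and 31.1 CPM in non-overload and 8.44, 38.6 and 8.93 CPM in overload libraries of G1-1. In that particle, replicates 2 and 3 at non-overload and replicate 2 at overload were high and every other library was at 17.1 CPM or less. Over the other 3 particles Irf7 ranged from 8.50 to 23.7 CPM, the highest being control replicate 1 of Bayertitan. Usp18, which removes Isg15 from proteins and dampens the receptor, ranged from 18.7 to 39.0 CPM, and Trim25, a ubiquitin ligase of the sensor pathway, from 30.0 to 45.1 CPM, both highest in overload replicate 2 of G1-1.

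Mx1 and Mx2, dynamin-like GTPases that trap viral components, showed the pattern most clearly. Mx1 was at 12.6, 9.81 and 8.83 CPM in control, 9.61, 30.1 and 25.4 CPM in non-overload and 6.78, 48.7 and 6.35 CPM in overload libraries of G1-1. Mx1 was at 23.2, 7.15 and 7.66 CPM in control, 11.1, 6.59 and 8.27 CPM in non-overload and 10.3, 8.74 and 8.72 CPM in overload libraries of Printex90. Overload replicate 2 of G1-1 and control replicate 1 of Printex90 stood far above their replicates, and in both particles the overload and control groups overlapped. Mx1 was at 8.76, 11.0 and 10.4 CPM in control, 12.4, 8.13 and 12.7 CPM in non-overload and 9.13, 18.5 and 17.8 CPM in overload libraries of G3-1. Mx1 was at 11.3, 6.43 and 5.97 CPM in control, 14.3, 8.82 and 5.47 CPM in non-overload and 11.6, 11.4 and 7.53 CPM in overload libraries of Bayertitan. In G3-1 overload replicates 2 and 3 were above the controls and replicate 1 was among them. The fitted change of Mx1 at G1-1 overload was 0.99 (log2, SE 0.56, adjusted p = 0.400 by edgeR) and -0.66 (adjusted p = 0.542) without overload replicate 2.

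Mx2 was at 2.53, 2.78 and 2.56 CPM in control, 2.65, 10.1 and 5.06 CPM in non-overload and 2.37, 20.5 and 3.49 CPM in overload libraries of G1-1. Mx2 was at 9.27, 2.62 and 3.91 CPM in control, 4.53, 3.84 and 4.19 CPM in non-overload and 2.58, 1.83 and 3.10 CPM in overload libraries of Printex90. Mx2 was thus high in the same libraries as Mx1, and its G1-1 overload value rested on replicate 2. Mx2 was at 3.65, 2.46 and 3.07 CPM in control, 3.83, 3.05 and 3.90 CPM in non-overload and 3.56, 7.36 and 5.16 CPM in overload libraries of G3-1. Mx2 was at 4.72, 1.90 and 3.65 CPM in control, 7.25, 2.98 and 2.68 CPM in non-overload and 3.37, 4.49 and 3.24 CPM in overload libraries of Bayertitan. The G1-1 overload change was 1.74 (log2, SE 0.58, adjusted p = 0.0850 by edgeR and 0.0265 by DESeq2) and 0.15 (adjusted p = 0.928) without that library. Mx1 and Mx2 lie close together, with 1 protein-coding gene between them in RefSeq.

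**Figure D3:**
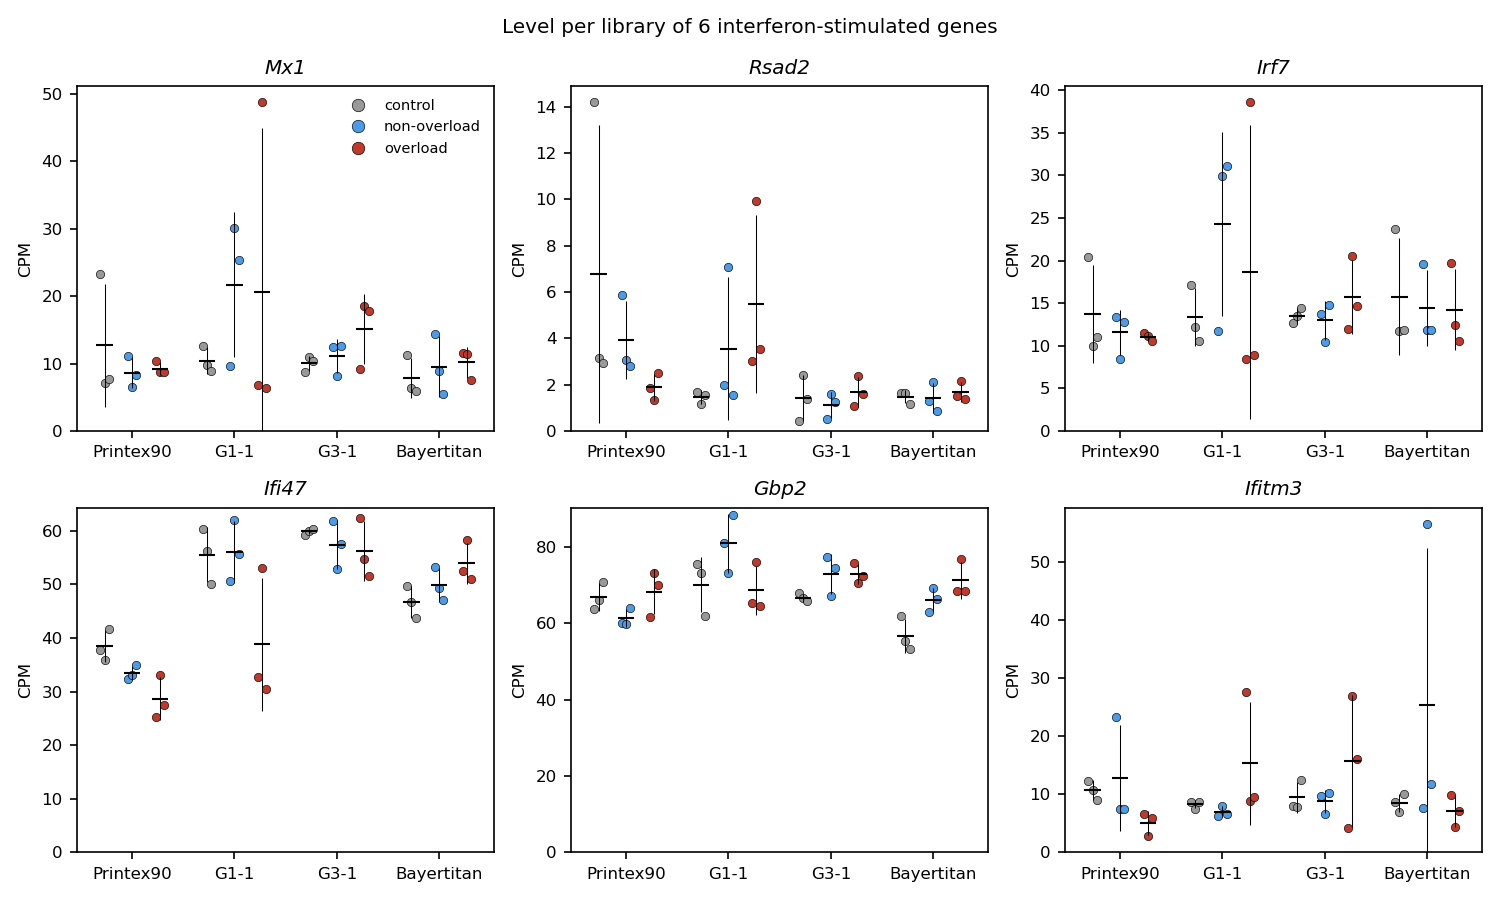
CPM (vertical axes, from 0) of Mx1, Rsad2, Irf7, Ifi47, Gbp2 and Ifitm3 in each library, by particle, with control in grey, non-overload in blue and overload in red; horizontal lines are group means and vertical lines standard deviations (n = 3). Mx1 and Irf7 were highest in overload replicate 2 of G1-1, at 48.7 and 38.6 CPM, whereas the replicates of Gbp2 lay close together in every group.

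Rsad2, which encodes viperin, an enzyme that makes a chain-ending nucleotide, had the widest spread of all. Rsad2 was at 14.2, 3.14 and 2.95 CPM in control, 5.87, 3.07 and 2.82 CPM in non-overload and 1.85, 1.34 and 2.49 CPM in overload libraries of Printex90. All Printex90 overload libraries were below the controls, of which replicate 1 was far above the others (log2 fold change -1.83, SE 0.64, adjusted p = 0.0711 by edgeR and 0.0302 by DESeq2). Rsad2 was at 1.70, 1.15 and 1.57 CPM in control, 1.99, 7.10 and 1.56 CPM in non-overload and 3.01, 9.91 and 3.52 CPM in overload libraries of G1-1. Here all overload libraries were above the controls (log2 fold change 1.90, SE 0.64, adjusted p = 0.0884 by edgeR and 0.0306 by DESeq2), and without replicate 2 the change was 1.15 (adjusted p = 0.422). Rsad2 was at 0.433, 2.40 and 1.39 CPM in control, 0.504, 1.59 and 1.26 CPM in non-overload and 1.07, 2.36 and 1.59 CPM in overload libraries of G3-1. Rsad2 was at 1.63, 1.64 and 1.15 CPM in control, 1.29, 2.13 and 0.858 CPM in non-overload and 1.51, 2.17 and 1.36 CPM in overload libraries of Bayertitan. In these particles the loadings overlapped. The lowest library had 14 counts of the gene.

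Rsad2 was 1 of the 2 members that differed between the 4 control groups (adjusted p = 0.0243 by edgeR). The Printex90 controls averaged 6.76 ± 6.44 CPM, those of G1-1 1.47 ± 0.29, those of G3-1 1.41 ± 0.985 and those of Bayertitan 1.47 ± 0.281 CPM (SD, n = 3). Without control replicate 1 of Printex90 the difference did not pass (adjusted p = 0.524). Cmpk2, a nucleotide kinase that lies next to Rsad2 with no protein-coding gene between, was also highest in that library, at 22.1 CPM, and ranged down to 9.60 CPM.

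The other enzymes and binding proteins of the antiviral set did not pass by edgeR against control, and DESeq2 called Oasl with G1-1 overload. The oligoadenylate synthetase gene Oas1a ranged from 2.50 to 10.7 CPM and its relative Oasl from 7.08 to 35.5 CPM. Oasl was at 9.49, 8.61 and 7.08 CPM in control, 9.47, 25.0 and 16.2 CPM in non-overload and 9.25, 35.5 and 13.8 CPM in overload libraries of G1-1. Oasl came nearest to the threshold of the members not called at G1-1 overload (log2 fold change 1.22, SE 0.37, adjusted p = 0.0510 by edgeR and 0.0129 by DESeq2), and without replicate 2 it was at 0.46 (adjusted p = 0.549). The RNA-binding genes Ifit2 and Ifit3, neighbours in the genome, ranged from 27.2 to 63.5 and from 5.12 to 33.7 CPM. The ubiquitin-like Isg15 ranged from 1.34 to 5.25 CPM, the ligase gene Herc6 from 10.4 to 27.6 CPM and the apoptosis-linked Xaf1 from 1.22 to 4.37 CPM. Rtp4 ranged from 3.02 to 11.6 CPM and Eif2ak2, the kinase that halts translation on double-stranded RNA, from 56.6 to 82.8 CPM. Each of these 9 genes, from Oas1a to Eif2ak2, was highest in overload replicate 2 of G1-1.

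Isg20, an exonuclease that degrades RNA, moved apart from these genes. Isg20 was at 6.67, 6.61 and 7.15 CPM in control, 5.12, 3.47 and 3.25 CPM in non-overload and 3.53, 2.24 and 5.17 CPM in overload libraries of Bayertitan. All 3 overload libraries lay below the controls (log2 fold change -0.90, SE 0.33, adjusted p = 0.0732 by edgeR), and DESeq2 called this difference. Isg20 was at 4.63, 7.17 and 4.32 CPM in control, 2.63, 6.07 and 3.79 CPM in non-overload and 4.40, 3.01 and 2.25 CPM in overload libraries of G3-1. The overload group overlapped the controls there (log2 fold change -0.74, SE 0.33, adjusted p = 0.369 by edgeR). Isg20 was highest in overload replicate 1 of Printex90, at 8.05 CPM. The epithelial marker sum was 1304, 1467 and 1527 CPM in control and 914, 760 and 1276 CPM in overload libraries of Bayertitan, without overlap. At Bayertitan non-overload it was 1297, 812 and 996 CPM. With G3-1 it was 1093, 1251 and 984 CPM in control and 963, 747 and 744 CPM in overload libraries. At G3-1 non-overload it was 695, 1485 and 946 CPM. The part of epithelial transcripts in the Isg20 level was not tested.

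Bst2, the tetherin that holds virus particles at the cell surface, had the smallest p of the members for G3-1 at overload and was otherwise steady. Bst2 was at 25.9, 25.7 and 23.7 CPM in control, 21.6, 21.2 and 24.2 CPM in non-overload and 23.2, 20.3 and 20.9 CPM in overload libraries of G3-1. All 3 overload libraries were below the 3 controls (log2 fold change -0.23, SE 0.093, adjusted p = 0.339 by edgeR). Bst2 was at 21.3, 22.1 and 23.9 CPM in control, 21.4, 21.2 and 18.1 CPM in non-overload and 19.2, 21.5 and 19.7 CPM in overload libraries of Printex90. Bst2 was at 23.3, 26.0 and 24.1 CPM in control, 22.9, 20.4 and 25.1 CPM in non-overload and 21.5, 23.4 and 21.1 CPM in overload libraries of G1-1. Bst2 was at 25.0, 21.7 and 18.9 CPM in control, 23.0, 18.8 and 21.1 CPM in non-overload and 22.6, 23.2 and 21.5 CPM in overload libraries of Bayertitan. Overload and control libraries overlapped in these 3 particles.

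Ifitm3, a membrane protein that blocks the entry of viruses, followed a pattern of its own. Ifitm3 was at 8.67, 6.93 and 10.1 CPM in control, 7.73, 56.6 and 11.7 CPM in non-overload and 9.95, 4.34 and 7.22 CPM in overload libraries of Bayertitan. Ifitm3 was at 12.4, 10.8 and 8.99 CPM in control, 23.3, 7.49 and 7.50 CPM in non-overload and 6.61, 2.77 and 5.90 CPM in overload libraries of Printex90. One non-overload library stood out in either particle, replicate 2 of Bayertitan and replicate 1 of Printex90. Ifitm3 was at 8.61, 7.49 and 8.77 CPM in control, 6.29, 8.08 and 6.64 CPM in non-overload and 27.7, 8.81 and 9.52 CPM in overload libraries of G1-1. Ifitm3 was at 8.05, 7.87 and 12.5 CPM in control, 9.67, 6.55 and 10.2 CPM in non-overload and 4.25, 27.0 and 16.1 CPM in overload libraries of G3-1. At overload, replicate 1 of G1-1 and replicates 2 and 3 of G3-1 were the high ones.

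These were libraries with Col3a1. In the 15 libraries with more than 1 count of this fibroblast collagen gene, Ifitm3 was at 8.08 to 56.6 CPM, against 2.77 to 9.52 CPM in the 21 others, and 13 of the 15 lay above all 21. Within groups, the replicate with the most Ifitm3 was also the one with the most Col3a1 in 10 of the 11 groups in which any library had Col3a1. Gbp5 was above all 21 in 6 of the 15, Rsad2, Ifi44, Cmpk2 and Dtx3l in 1 each, and the other 27 members in none. The part of fibroblast transcripts in the Ifitm3 level was not tested. Ifitm3 had the smallest p of the members for overload against non-overload with Bayertitan (log2 fold change -1.82, SE 0.61, adjusted p = 0.721 by edgeR) and with Printex90 (log2 fold change -1.32, SE 0.61, adjusted p = 0.223), and neither passed.

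**Figure D4:**
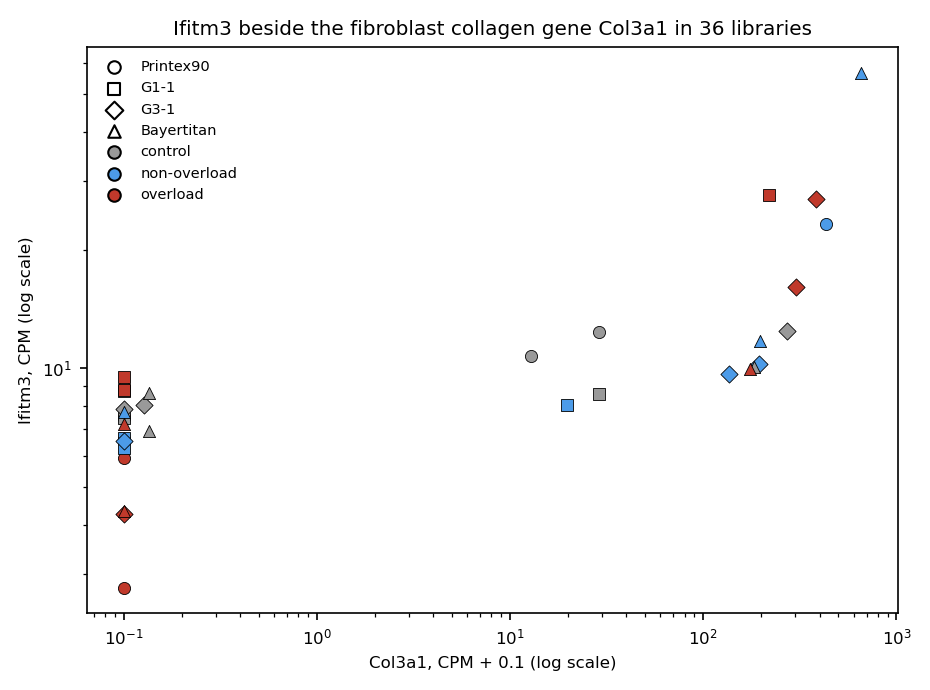
CPM of Ifitm3 (vertical axis, log scale) against CPM of the fibroblast gene Col3a1 plus 0.1 (horizontal axis, log scale) in the 36 libraries, with shapes for particles and colours for loadings. The 21 libraries with at most 1 count of Col3a1 stand at the left at 2.77 to 9.52 CPM of Ifitm3, and 13 of the other 15 lie above them, up to 56.6 CPM.

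The interferon-inducible GTPases held most of the calls. Ifi47, an immunity-related GTPase, fell at overload with 2 particles. Ifi47 was at 37.8, 35.9 and 41.7 CPM in control, 32.3, 33.2 and 34.9 CPM in non-overload and 25.3, 33.1 and 27.6 CPM in overload libraries of Printex90. Ifi47 was at 60.4, 56.1 and 50.1 CPM in control, 50.5, 61.9 and 55.7 CPM in non-overload and 32.7, 53.1 and 30.6 CPM in overload libraries of G1-1. With Printex90 all overload libraries were below the controls, and with G1-1 replicates 1 and 3 were far below them while replicate 2, the library in which most members were high, was among them. The change was -0.43 with Printex90 (log2, SE 0.14, adjusted p = 0.0491 by edgeR) and -0.52 with G1-1 (SE 0.13, adjusted p = 0.0199). Against non-overload the G1-1 change was -0.53 (SE 0.13, adjusted p = 0.0328).

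Ifi47 was at 59.2, 60.0 and 60.3 CPM in control, 61.9, 52.8 and 57.5 CPM in non-overload and 62.4, 54.7 and 51.6 CPM in overload libraries of G3-1. Ifi47 was at 49.7, 46.7 and 43.6 CPM in control, 53.2, 49.2 and 47.1 CPM in non-overload and 52.5, 58.2 and 51.0 CPM in overload libraries of Bayertitan. With G3-1 the loadings overlapped, and with Bayertitan the overload libraries lay just above the controls (log2 fold change 0.21, SE 0.13, adjusted p = 0.316 by edgeR). Averaged over the particles the overload change was -0.21 (SE 0.067, adjusted p = 0.0246). The Ifi47 controls of Printex90 averaged 38.5 ± 2.93 CPM, those of G1-1 55.5 ± 5.17, those of G3-1 59.8 ± 0.543 and those of Bayertitan 46.7 ± 3.01 CPM (SD, n = 3; adjusted p = 0.0141 for a difference between the 4 groups by edgeR).

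Single libraries moved these calls. Without overload replicate 2 of G1-1 the G1-1 change of Ifi47 was -0.81 (adjusted p = 2.45e-05 by edgeR), and the 4 overload changes of Ifi47 then differed (adjusted p = 0.000567, against 0.0804 with all libraries). Ifi44, a cytoplasmic protein of the antiviral response, was then also lower with G1-1 overload (log2 fold change -0.53, adjusted p = 0.0110). The adjusted p of Ifi47 rose to 0.0642 to 0.136 when any 1 of the 6 Printex90 libraries of the comparison was left out, and to 0.0669 to 0.174 without control replicate 1 or 2 or overload replicate 1 or 3 of G1-1.

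Gbp2, a guanylate-binding protein that attacks the vacuoles of microbes, had the narrowest spread of the members. Gbp2 was at 61.7, 55.4 and 53.2 CPM in control, 62.9, 69.2 and 66.3 CPM in non-overload and 68.4, 76.8 and 68.5 CPM in overload libraries of Bayertitan. All overload and all non-overload libraries of Bayertitan were above the 3 controls. The overload change was 0.33 (log2, SE 0.082, adjusted p = 0.0265 by edgeR) and the non-overload change 0.22 (SE 0.082, adjusted p = 0.229). Gbp2 was at 63.7, 65.9 and 70.9 CPM in control, 60.0, 59.8 and 64.0 CPM in non-overload and 61.7, 73.1 and 70.0 CPM in overload libraries of Printex90. Gbp2 was at 75.4, 73.1 and 61.8 CPM in control, 81.1, 73.1 and 88.3 CPM in non-overload and 65.3, 76.0 and 64.5 CPM in overload libraries of G1-1. Gbp2 was at 67.8, 66.5 and 65.8 CPM in control, 77.3, 67.2 and 74.4 CPM in non-overload and 75.7, 70.6 and 72.4 CPM in overload libraries of G3-1. With G3-1 the overload libraries were also all above the controls, by less than the test could call, and with the other 2 particles they overlapped them.

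Averaged over the 4 particles Gbp2 was higher at overload by 0.11 (log2, SE 0.041, adjusted p = 0.0420 by edgeR) and at non-overload by 0.11 (SE 0.041, adjusted p = 0.126). The averaged overload call was lost in 17 of 31 alternative settings, with adjusted p-values of 0.0132 to 0.467 over all 31. The highest came with the epithelial marker level as a covariate, where the change was 0.05. The Bayertitan call was lost without control replicate 2 (adjusted p = 0.0509), control replicate 3 (0.207) or overload replicate 2 (0.297).

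Gbp5, a relative that promotes inflammasome assembly, had the smallest p of the members for G3-1 overload against non-overload. Gbp5 was at 9.31, 8.30 and 9.93 CPM in control, 9.75, 7.45 and 10.2 CPM in non-overload and 9.73, 11.3 and 11.3 CPM in overload libraries of G3-1. The 2 groups overlapped (log2 fold change 0.24, SE 0.13, adjusted p = 0.762 by edgeR). Gbp5 was at 8.32, 8.19 and 7.47 CPM in control, 7.35, 9.14 and 8.41 CPM in non-overload and 6.64, 6.24 and 7.19 CPM in overload libraries of G1-1. The 3 G1-1 overload libraries were below the controls (log2 fold change -0.26, SE 0.13, adjusted p = 0.316). Gbp5 was at 7.87, 5.85 and 6.71 CPM in control, 6.29, 7.04 and 7.66 CPM in non-overload and 6.23, 5.62 and 6.74 CPM in overload libraries of Printex90. Gbp5 was at 8.50, 8.01 and 6.63 CPM in control, 8.41, 10.0 and 9.60 CPM in non-overload and 9.09, 7.91 and 8.42 CPM in overload libraries of Bayertitan. Both of these particles overlapped between overload and control. Igtp, another immunity-related GTPase, stayed between 19.7 and 30.3 CPM.

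Parp9 and Dtx3l encode an ADP-ribosyltransferase and the ubiquitin ligase that it works with, and Parp14 lies beside them, with no protein-coding gene between the 3 in RefSeq. Parp9 was at 50.2, 44.5 and 45.2 CPM in control, 42.2, 39.9 and 39.4 CPM in non-overload and 38.4, 33.4 and 37.4 CPM in overload libraries of Printex90. All overload and all non-overload libraries were below the controls. The overload change was -0.36 (log2, SE 0.11, adjusted p = 0.0396 by edgeR) and the non-overload change, which had the smallest p of the members in that comparison, -0.20 (SE 0.11, adjusted p = 0.996). The overload call was lost without control replicate 1 (adjusted p = 0.197) or 2 (0.0538) or overload replicate 2 (0.266) or 3 (0.0670), and with the epithelial marker covariate (log2 fold change -0.34, adjusted p = 0.102). The epithelial marker sum was 853 to 1532 CPM in these overload libraries and 1299 to 1849 CPM in their controls.

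Parp9 was at 45.9, 44.5 and 41.4 CPM in control, 43.7, 51.7 and 47.7 CPM in non-overload and 37.1, 58.2 and 39.2 CPM in overload libraries of G1-1. Parp9 was at 45.4, 46.9 and 43.4 CPM in control, 45.1, 44.4 and 45.8 CPM in non-overload and 45.8, 45.9 and 40.2 CPM in overload libraries of G3-1. Parp9 was at 44.0, 42.5 and 39.5 CPM in control, 44.5, 38.2 and 38.4 CPM in non-overload and 40.3, 45.2 and 41.6 CPM in overload libraries of Bayertitan. In these 3 particles the loadings overlapped, and overload replicate 2 of G1-1 was the highest of all 36. Dtx3l ranged from 29.8 to 48.7 CPM and Parp14 from 125 to 219 CPM, and both lay below the controls in all 3 Printex90 overload libraries without passing the test.

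Ifi27, a mitochondrial and nuclear membrane protein gene, had the smallest p of the members for G3-1 at non-overload. Ifi27 was at 51.1, 54.6 and 56.4 CPM in control, 59.9, 59.1 and 68.8 CPM in non-overload and 58.7, 66.2 and 58.1 CPM in overload libraries of G3-1. All non-overload and overload libraries were above the 3 controls (non-overload log2 fold change 0.21, SE 0.11, adjusted p = 0.932 by edgeR). Ifi27 was at 51.9, 50.9 and 49.7 CPM in control, 59.4, 51.7 and 47.9 CPM in non-overload and 51.3, 56.7 and 58.8 CPM in overload libraries of Printex90. Ifi27 was at 61.8, 65.2 and 57.3 CPM in control, 56.6, 65.1 and 75.0 CPM in non-overload and 56.5, 61.7 and 50.01 CPM in overload libraries of G1-1. Ifi27 was at 66.2, 53.4 and 48.0 CPM in control, 59.0, 61.6 and 48.5 CPM in non-overload and 65.7, 59.2 and 55.9 CPM in overload libraries of Bayertitan. The loadings overlapped with these 3 particles. Ifi44 ranged from 8.98 to 15.2 CPM.

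Of 123 other genes of interferon production, signalling and response, 112 had a row and 99 were tested. At overload 5 of the 99 passed with Printex90 (1 higher, 4 lower), where 7.99% of all genes passed. With G1-1, 9 passed (2 higher, 7 lower), where 5.01% of all genes did. With G3-1, 0 passed (0.117% of all genes), and with Bayertitan 9 did (8 higher, 1 lower), where 9.84% of all genes passed. Unadjusted p-values by edgeR were under 0.05 for 20, 22, 9 and 32 of the 99 in that order, against 25.2%, 16.8%, 12.2% and 28.3% of all genes. Averaged over the particles 20 of 99 passed, 11 higher and 9 lower, where 24% of all genes passed. By kind, these were 3 of 15 receptor and signalling genes, 2 of 18 sensors and adaptors, 5 of 7 interferon regulatory factors and 10 of 59 other induced genes.

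The regulatory factor Irf1, which drives many of the same targets, had the smallest p of these. Irf1 was at 26.1, 24.8 and 26.0 CPM in overload and 36, 31.4 and 31.3 CPM in control libraries of Printex90. With G1-1 it was at 25.8, 25.9 and 24.6 CPM in overload and 28.8, 30.9 and 29.9 CPM in control libraries, again without overlap. With G3-1 it was at 27.1, 30.4 and 30.9 CPM in overload and 30.2, 32.3 and 30.0 CPM in control libraries, and with Bayertitan at 30.6, 27.2 and 28.3 CPM in overload and 30.6, 31.3 and 31.7 CPM in control libraries. In these 2 particles the groups overlapped. Averaged over the particles it fell by 0.19 on the log2 scale (SE 0.029, adjusted p = 3.66e-05 by edgeR). Irf3, the factor that starts interferon transcription, also fell (average log2 fold change -0.19), as did Irf8, a factor of the monocyte lineage (-0.22), and Shisa5 (-0.13). Irf4 (0.31), Ifitm1, a relative of Ifitm3 (0.35), and Ube2l6, the enzyme that passes Isg15 to its ligases (0.27), rose, and all 6 had an adjusted p under 0.05 by edgeR for the average.

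Tlr8, an endosomal RNA receptor, was the only 1 of the 99 whose 4 overload changes differed past the threshold (adjusted p = 0.0206 by edgeR). It was at 63.3, 71.7 and 68.2 CPM in overload and 179, 145 and 113 CPM in control libraries of G1-1 (log2 fold change -1.10, SE 0.16, adjusted p = 6.11e-05 by edgeR), without overlap. The log2 fold change was -0.31 with Printex90 (SE 0.16, adjusted p = 0.221), -0.30 with G3-1 (SE 0.16, adjusted p = 0.437) and 0.04 with Bayertitan (SE 0.16, adjusted p = 0.902, all by edgeR). Tlr8 averaged 99.4 ± 10.4 CPM in overload and 123 ± 22.9 CPM in control libraries of Printex90, 168 ± 28.5 and 207 ± 20.6 CPM in those of G3-1 and 187 ± 18.2 and 181 ± 26.4 CPM in those of Bayertitan (SD, n = 3), and in each of these the groups overlapped.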

How the data were processed

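Total RNA was depleted of ribosomal RNA and made into libraries from 150 ng per sample, per the labels' protocols. The authors deposited 1 table of estimated counts, with genes in rows. The submitters' processing notes name Salmon, FastQC, MultiQC and Rnor_6.0, and versions, annotation and strand setting are not given in the sources used here. Of the values 47.7% were not whole, so they were rounded. Every column name matched a sample label.

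Genes were filtered with filterByExpr by group, which left 14498, and scaled by TMM (factors 0.934 to 1.07). CPM values use those library sizes. All 36 libraries entered 1 edgeR 4.0.16 quasi-likelihood fit of 12 group means (limma 3.58.1 and R 4.3.3; 24 residual degrees of freedom), and 17 comparisons were made, each adjusted over all tested genes. Spread within groups was computed on log2 CPM with a prior count of 2. On simulated data for Printex90 overload against control, with 14498 genes, 40% of 1.5-fold and 75% of 2-fold changes were recovered with 10 false calls. The simulated counts were drawn with the dispersion trend over abundance and without any extra spread of single genes. Of the 33 members, 32 lay above the fitted dispersion and 25 were more than 2 times it, so these rates do not give the recovery of the members. The chi-square per gene between libraries of a group was at least 6.88, so none were counted as 1 sample. Floors of 3 counts cover counting error only.

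Alternatives were DESeq2 1.42.0, RLE size factors, no filter, the replicate number as a block, marker levels as covariates, libraries left out and each particle fitted alone. Replicate numbers deviated together (every correlation over 0.1) in 1 of 12 pairs of groups, G1-1 overload and control, and the block changed no call there. Members with library values were those called in any comparison, the smallest p of each comparison, the 4 with the widest and the 2 with the narrowest spread. Other pathway genes were taken by smallest adjusted p. Irf7, Oasl, Isg20, Ifi44 and Cxcl10 were added after their values were seen. Members and lists were chosen with earlier results of these data known.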

Additional observations from a re-analysis of the deposited data

Results flagged for a closer look

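In 3 of the 33 members every overload library of one particle lay above its controls while every overload library of another lay below its controls. The share of all genes with such a pattern was not computed, so the count cannot be set against it. In single particles 5.67% to 16.8% of all genes lay above their controls at overload and 9.02% to 14.2% below them. Rsad2 had a log2 fold change of 1.90 with G1-1 overload and of -1.83 with Printex90 overload. The test of a difference between the 4 overload changes did not pass for it by edgeR (adjusted p = 0.0990) and did by DESeq2. Ifi47 had 0.21 with Bayertitan overload and -0.43 with Printex90 overload, with an adjusted p of 0.0804 for that difference by edgeR, and DESeq2 called it too. Ifitm3 had 0.89 with G1-1 overload and -1.07 with Printex90 overload, with an adjusted p of 0.376 by edgeR. Col3a1 had more than 1 count in 1 G1-1 overload library, replicate 1, which also had the most Ifitm3 of its group. The same held for Col3a1 counts in 1 G1-1 control, 0 Printex90 overload and 2 Printex90 control libraries. The part of fibroblast transcripts in these Ifitm3 changes was not tested. Groups of 3 libraries are too small for a search for outlying samples.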

How the results depend on the processing

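Comparisons not named here had 0 members called under every alternative run. Printex90 overload (2 called) gave 1 with RLE size factors, 1 without the filter and 1 with the epithelial covariate, 3 by DESeq2, and 0 without the libraries with Col3a1 or with the 9 libraries of the particle alone. G1-1 overload (1 called) gave 2 with RLE size factors, 2 with the epithelial and 2 with the fibroblast covariate, 4 by DESeq2, and 0 without the libraries with Col3a1 or with 9 libraries. Bayertitan overload (1 called) gave 0 with the epithelial covariate, 0 without the libraries with Col3a1, 0 with 9 libraries and 2 by DESeq2. G1-1 overload against non-overload (1 called) gave 0 without the libraries with Col3a1 and 0 with 9 libraries. Averaged overload (2 called) gave 1 without the filter, 1 with the epithelial covariate, 0 without the libraries with Col3a1 and 3 by DESeq2 and with the fibroblast covariate. The overload changes (0 called to differ) gave 2 by DESeq2, and the control groups (2) gave 1 with the epithelial covariate, 0 without the libraries with Col3a1 and 4 by DESeq2. The 21 libraries without Col3a1 leave some groups with 1 library, which is assumed to vary like the others.

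The replicate number as a block left 1 of the 2 averaged overload calls, Ifi47, and the other counts of member calls as they were. The numbers do not pair the samples in general: correlations of deviations between groups ran from -0.67 to 0.43. In 14 of 36 same-numbered pairs of libraries the correlation was higher than with the 2 other numbers of that group.

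Leaving out 1 library gave 0 to 3 calls for Printex90 overload, 0 to 2 for G1-1 overload, 0 to 2 for Bayertitan overload and 0 to 4 for G1-1 overload against non-overload. It gave 1 to 6 for averaged overload, 0 to 1 for averaged overload against non-overload, 0 to 2 for the overload changes and 0 to 3 for the control groups. Without overload replicate 2 of G1-1 averaged overload reached 6, all lower and without Gbp2, the overload changes 2 (Ifi47 and Ifi44) and G1-1 overload against non-overload 4, all lower (Ifi47, Ifi44, Parp9 and Eif2ak2), and the control groups fell to 0 without control replicate 1 of Printex90. Without that group's replicate 2 the positive fold changes at G1-1 overload fell to 8 of 33, against 25 with all libraries, and Mx1 was at -0.66 in place of 0.99. The precision of members with wide spread is limited by 3 libraries per group and, for some, by low counts, with at least 14 counts a library for Rsad2, 41 for Mx2 and 153 for Mx1.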
